A study of Mus musculus with 6 samples.

Results

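The 38 genes described here encode the machinery of programmed cell death and the best known transcriptional targets of p53: members of the Bcl2 family, caspases with their activators and inhibitors, death receptors, p53 with its regulators, and further p53 targets. They are autosomal genes listed by name, with no threshold on measured values, and all 38 were found among the 37310 gene identifiers of the count files. Polyadenylated RNA was sequenced from tailbuds of mouse embryos at embryonic day 9.5, on an outbred CD-1 background. The WT group (genotype WT/WT) and the Sd/Sd group, which carries Danforth's short tail on both chromosomes, had 3 libraries each. Danforth's short tail is a mouse mutation that disturbs the notochord. Some libraries pool the tailbuds of 2 embryos, but the labels do not tell which. A tailbud library mixes all cell types of the tail tip, so fewer cells of a type and less RNA per cell cannot be told apart.

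Cells that die by the mitochondrial route are governed by the balance between guardian proteins such as Bcl2 and Mcl1, BH3-only proteins that antagonise them, and the effectors Bax and Bak1, which open the outer mitochondrial membrane. Cytochrome c then leaves the mitochondrion, binds Apaf1 and activates caspase 9, which in turn activates further caspases. The transcription factor p53 is kept low by Mdm2 and Mdm4 and is stabilised, chiefly as a protein, after damage or stress. It then raises transcription of Cdkn1a, Bbc3, Pmaip1, Bax and its own inhibitor Mdm2. Much of this machinery is regulated after transcription, so transcript levels report the supply of its parts and the transcriptional output of p53, and not caspase activity. The comparison asks whether that supply or output differs between tailbuds whose notochord genes are low and WT tailbuds.

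No death or p53 gene among the 38 passed the test between Sd/Sd and WT tailbuds. All 38 passed the filter on low counts, and 0 passed an adjusted p of 0.05 in edgeR's quasi-likelihood test, against 9 of 15471 genes tested (0.0582%; 0.0388% higher and 0.0194% lower in Sd/Sd). At an unadjusted p under 0.05 the edgeR count was also 0, against 2.9% of all genes (0.944% higher and 1.95% lower). DESeq2 called 0 members after adjustment (0.222% of genes) and 1, Cdkn1a, at an unadjusted p under 0.05 (2.77%). Both DESeq2 shares are over the 17591 genes to which it gave an adjusted p. Limma-voom called 0 members after adjustment (0.0194% of all genes) and 0 without it (3.21%). With a block on replicate number, edgeR called 0 members after adjustment (0.0776% of all genes) and 1, Cdkn1a again, without it (3.72%). The adjusted p of every member was 1.00 in edgeR's test. The median log2 fold change over the members, Sd/Sd minus WT, was -0.03, beside 0.00 over all genes tested, with single members between -0.42 and 0.14. Over the 38 members, 14 log2 fold changes were positive and 24 negative (36.8% positive, beside 49.9% of all genes tested).

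The libraries bound the changes closely. The 95% interval of the log2 fold change lay within 1 on either side of 0, a doubling or a halving, for 36 of 38 members, beside 77.6% of all genes tested. Bik and Fas, the members with the fewest counts, were the exceptions. With a bound of 1.5-fold, chosen after the values were seen, both ends of the interval lay inside for 33 members, beside 62.5% of all genes. The upper end alone, the largest increase in Sd/Sd that the interval holds, was under 1.5-fold for 37 of 38 members, and Fas was the exception at 1.74-fold. The median standard error was 0.09 on the log2 scale, beside 0.13 over all genes. The members were well measured: 33 had means above 10 CPM (counts scaled to library size with TMM factors) in both groups, and the lowest count of any member in any library was 27, for Bik. The shares over all genes were not matched to the members for abundance, so they do not show that these genes are unusually steady.

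**Figure D1:**
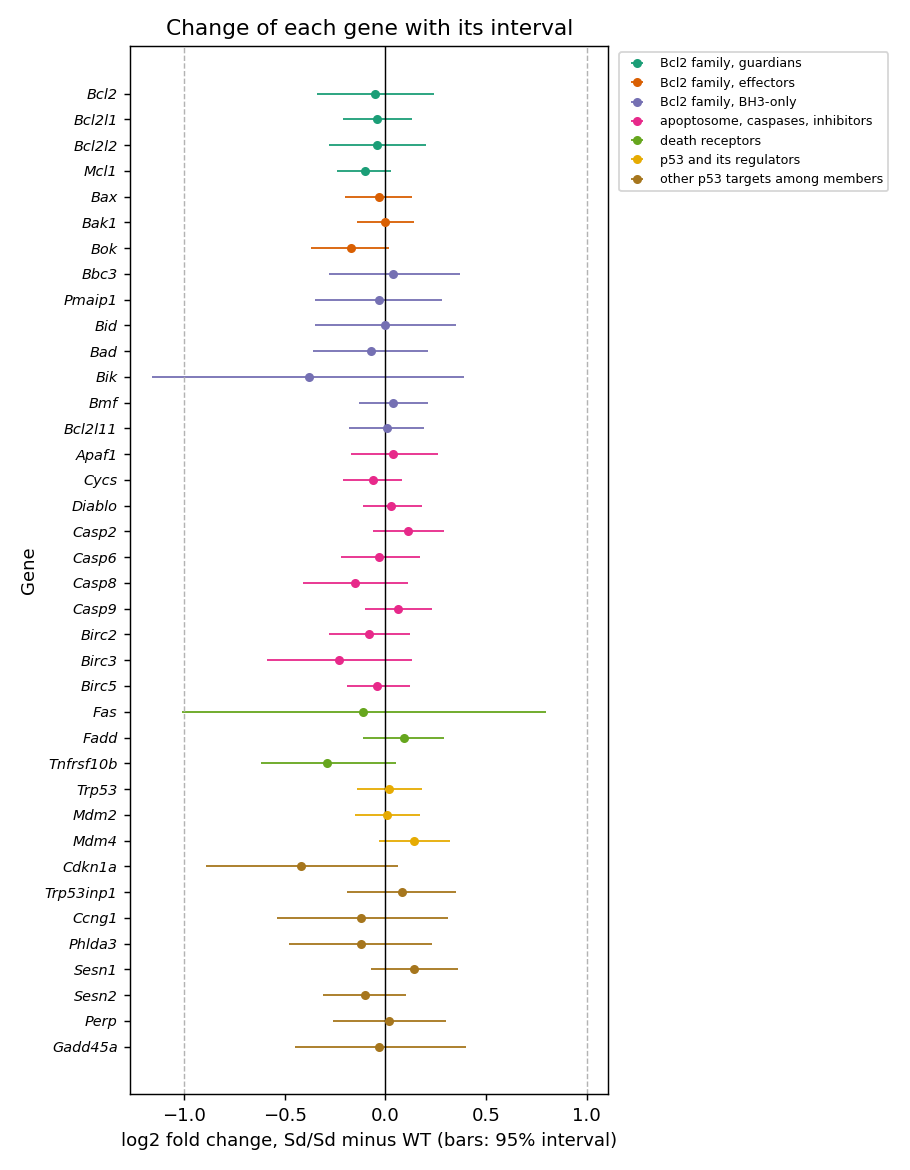
Log2 fold change of each of the 38 genes, Sd/Sd minus WT, from edgeR (x axis), with points for estimates, bars for 95% intervals, colours for roles and dashed lines at -1 and 1. Every interval includes 0, and only those of Bik and Fas reach past -1.

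The groups separated without overlap for 5 of 38 members (13.2%), beside 7.68% of all genes tested (3.26% with Sd/Sd higher, 4.42% with Sd/Sd lower): Mcl1, Bok, Casp8 and Birc3 had all Sd/Sd values below all WT values, and Sesn1 the reverse. Their log2 fold changes were small, -0.23 to 0.14, and none of the 5 had an unadjusted p under 0.05. Of the 38 genes, 19 kept the sign of their fold change in all 13 alternative analyses and 19 turned in at least 1.

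The genotype labels and the state of the tissue were checked on other genes. Ptf1a, the transcription factor gene beside the Danforth insertion, averaged 0.0521 ± 0.0377 CPM in the WT libraries and rose to 18.0 ± 3.65 CPM in the mutants (SD, n = 3; edgeR adjusted p = 3.17e-05). Shh, the notochord and hindgut signal, fell from 15.1 ± 1.55 to 5.38 ± 1.25 CPM (SD, n = 3; edgeR adjusted p = 0.0438). Noto, a gene of the posterior notochord, had 8.04, 8.53 and 11.1 CPM in WT replicates 1 to 3 and 2.23, 0.144 and 1.71 CPM in Sd/Sd replicates 1 to 3, but did not pass (edgeR adjusted p = 1.00). All 8 notochord markers had a negative log2 fold change (median -0.75), as did 7753 of the 15471 genes tested, and 1 marker, Shh, was called. T, Chrd and Foxj1 overlapped between groups, and T is also counted among the tailbud progenitor markers. Tailbud progenitor markers were abundant, with T at 77.1 to 203.4 CPM and Cdx2 at 66.9 to 187.9 CPM over the 6 libraries. Cdx4, on chromosome X, was listed at 0 in every library, and so were the other X-linked markers, Alas2 and Gata1. Whether counts of chromosome X are missing as a whole was not tested, so these values of 0 are not read as silent genes. Libraries totalled 41788978 to 62296689 counts. Summed somite markers stood at 19.5 CPM in Sd/Sd replicate 3 against 154.8 to 373.7 CPM elsewhere, so this library stands apart. No member was called with or without it.

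Trp53 (ENSMUSG00000059552.6, chromosome 11), the gene of p53 itself, was the most abundant member per length of exon. It measured 307, 284 and 315 CPM in WT replicates 1 to 3 and 326, 302 and 289 CPM in Sd/Sd replicates 1 to 3. The groups overlapped throughout, with a log2 fold change of 0.02 (SE 0.07, 95% interval -0.14 to 0.18), so the interval allows at most a 1.13-fold increase. Mdm2, the ubiquitin ligase that degrades p53 and is itself induced by it, measured 65.4, 61.0 and 66.8 CPM in WT libraries and 64.6, 62.0 and 67.7 CPM in Sd/Sd libraries. Its 2 groups spanned almost the same range, with a log2 fold change of 0.01 (SE 0.07, interval -0.15 to 0.17) and an upper bound of 1.12-fold.

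Mdm4, the relative of Mdm2 that blocks p53's activation domain, had the smallest p of these 3 genes. Its levels were 75.5, 77.2 and 78.7 CPM in WT and 86.2, 77.2 and 92.5 CPM in Sd/Sd. Sd/Sd replicates 1 and 3 lay above every WT library and replicate 2 lay among them. The log2 fold change was 0.14 (SE 0.08, interval -0.03 to 0.32; unadjusted p = 0.0983, edgeR adjusted p = 1.00), and with single libraries left out it ranged from 0.08 to 0.21: it was 0.21 without Sd replicate 2 (unadjusted p = 0.0170, edgeR adjusted p = 0.802) and 0.08 without Sd replicate 3 (unadjusted p = 0.291, edgeR adjusted p = 0.992).

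Cdkn1a (ENSMUSG00000023067.7, chromosome 17), which encodes the cell cycle inhibitor p21 and is the classic p53 target, had the largest difference of the 38 genes, toward lower values in Sd/Sd. It measured 12.9, 15.7 and 16.2 CPM in WT replicates 1 to 3 and 10.3, 8.42 and 14.9 CPM in Sd/Sd replicates 1 to 3. Sd/Sd replicates 1 and 2 lay below all WT libraries, while Sd/Sd replicate 3 lay within the WT range, so the groups overlapped. The log2 fold change was -0.42 (SE 0.21, interval -0.89 to 0.06; unadjusted p = 0.0790, edgeR adjusted p = 1.00), and the upper end of the interval was a 1.04-fold increase. Without Sd replicate 3 the log2 fold change was -0.68 (unadjusted p = 0.00224, edgeR adjusted p = 0.460), the smallest adjusted p that any member reached in any alternative. Without Sd replicate 2, the lowest library, it was -0.24 (unadjusted p = 0.221, edgeR adjusted p = 0.883). Tailbud progenitor markers moved with Cdkn1a in part: their summed level was lowest in Sd/Sd replicate 2, at 463.5 CPM, where Cdkn1a was also lowest. It was 660.3 to 1010 CPM in the other 5 libraries. Sd/Sd replicate 1 broke the parallel, with Cdkn1a at 10.3 CPM and a sum of 781.1 CPM, above WT replicates 1 and 2 (660.3 and 716.5 CPM). Sd/Sd replicate 2 also had the highest somite, neural tube and erythroid sums, at 373.7, 227.8 and 10000 CPM. Of the 12 tailbud markers 11 were tested and 0 called. The part of any of these tissues in the difference of Cdkn1a was not tested.

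Ccng1, which encodes cyclin G1 and is a target that feeds back on p53, varied among libraries of both groups. Its levels were 44.8, 55.3 and 53.8 CPM in WT and 35.8, 46.6 and 59.4 CPM in Sd/Sd, and Sd/Sd held both the lowest and the highest library. The log2 fold change was -0.12 (SE 0.18, interval -0.54 to 0.31; edgeR adjusted p = 1.00). Without Sd replicate 3, the highest library, it was -0.31 (unadjusted p = 0.0492, edgeR adjusted p = 0.928), and without Sd replicate 1, the lowest, the sign turned to 0.05 (unadjusted p = 0.717, edgeR adjusted p = 1.00).

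Trp53inp1, which encodes a nuclear protein that promotes p53-dependent death and autophagy, measured 10.9, 10.6 and 10.9 CPM in WT libraries and 11.2, 10.8 and 12.2 CPM in Sd/Sd libraries, ranges that overlap (log2 fold change 0.08, SE 0.12, interval -0.19 to 0.35). Sesn1, a sestrin gene that p53 induces and whose product restrains mTORC1, was the 1 member with all Sd/Sd values above WT, at 20.3, 20.5 and 19.6 CPM in WT and 21.9, 21.1 and 23.7 CPM in Sd/Sd. The gap between the groups was narrow, and the log2 fold change was 0.14 (SE 0.09, interval -0.07 to 0.36; unadjusted p = 0.157, edgeR adjusted p = 1.00).

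The other 4 targets of this class also overlapped between groups, as did 14283 of the 15471 genes tested. Phlda3, a repressor of Akt, Sesn2, the stress-induced sestrin, Perp, a desmosomal protein that takes part in p53-dependent death, and Gadd45a, a growth arrest and repair gene, had log2 fold changes of -0.12, -0.10, 0.02 and -0.03. Gadd45a spread most, from 8.93 CPM in Sd/Sd replicate 3 to 15.3 CPM in Sd/Sd replicate 2. Without Sd replicate 2, the log2 fold change of Phlda3 was -0.31 (unadjusted p = 0.0445, edgeR adjusted p = 0.830), and without Sd replicate 1 it was -0.03 (unadjusted p = 0.850). Over the 8 targets outside the Bcl2 family and death receptors, 3 log2 fold changes were positive and 5 negative, with a median of -0.07 and 0 genes called.

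**Figure D2:**
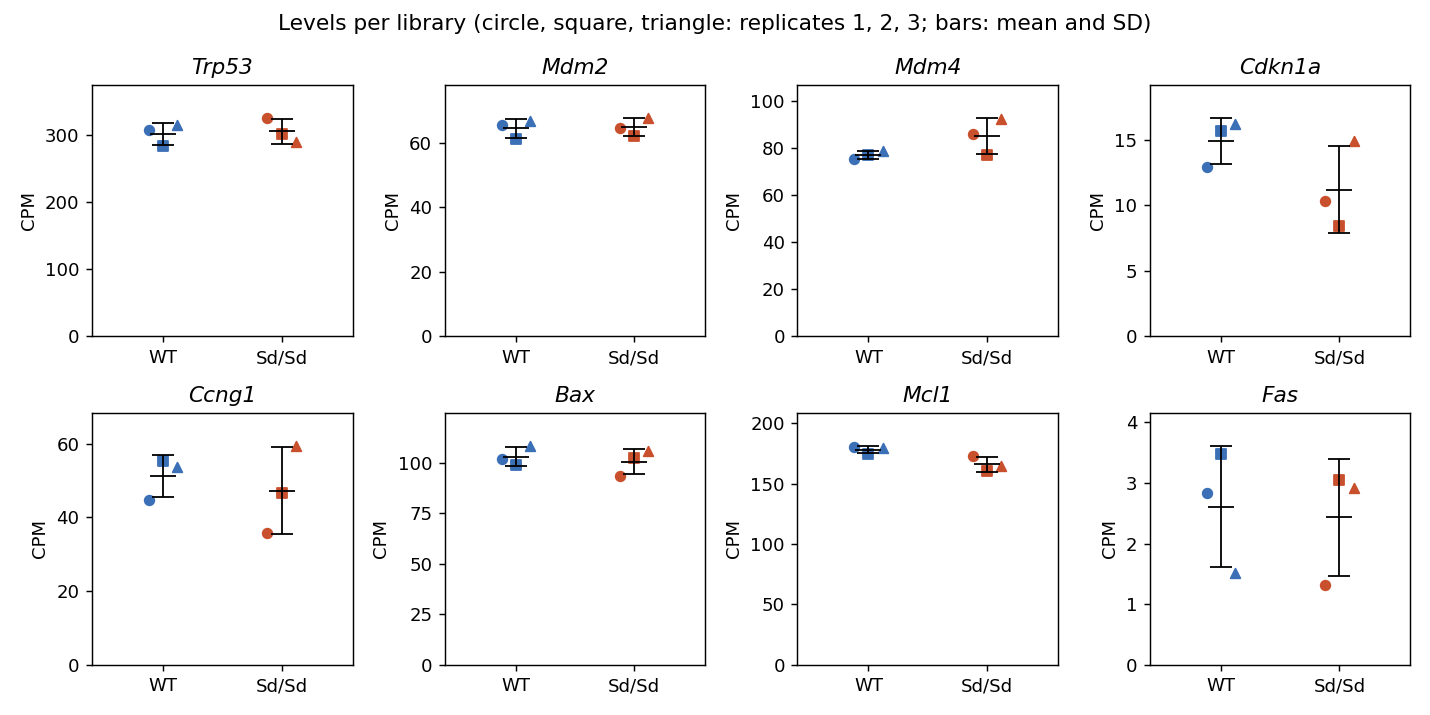
Level in CPM (y axis, from 0) of Trp53, Mdm2, Mdm4, Cdkn1a, Ccng1, Bax, Mcl1 and Fas in the WT (blue) and Sd/Sd (red) libraries, with marker shapes for replicates and bars for the mean and SD of 3 libraries. Cdkn1a reaches 8.42 CPM in Sd/Sd replicate 2 and 14.9 CPM in replicate 3, and only Mcl1 of these genes has groups that do not overlap.

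Promoter sequence was searched for the short motif that p53 recognises. The promoter table of RefSeq (GRCm38.p6; 250 bases before to 50 after a start) held 45 windows for 33 of the 38 members. The 10-base p53 half-site, which reads the same on both strands, matched in 10 windows of members (22.2%), beside 8.36% of 32851 windows of all genes, and in 6 of 15 windows of p53 targets. A match is a description of the letters, not a site shown to be bound. Only exact matches were counted, so near matches are left in lower case. The stretches of p53 targets are given because these are the genes whose transcripts would carry a p53 response, with the half-sites in capitals, 5′ to 3′ on the strand of the gene.
Cdkn1a (chr17:29090886-29090957, plus strand): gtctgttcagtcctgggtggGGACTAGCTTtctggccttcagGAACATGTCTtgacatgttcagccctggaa
Mdm2 (chr10:117710915-117710964, minus strand): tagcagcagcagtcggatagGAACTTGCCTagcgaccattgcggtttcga
Bax (chr7:45467070-45467119, minus strand): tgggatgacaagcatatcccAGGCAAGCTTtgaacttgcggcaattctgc
Ccng1 (chr11:40755442-40755491, minus strand): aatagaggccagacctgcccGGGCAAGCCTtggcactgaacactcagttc
Sesn1 (chr10:41887246-41887295, plus strand): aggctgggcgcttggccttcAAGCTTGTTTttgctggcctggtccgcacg
Gadd45a (chr6:67037418-67037467, minus strand): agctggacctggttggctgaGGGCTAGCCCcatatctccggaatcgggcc
Cdkn1a was the 1 member with a pair of exact half-sites no more than 13 bases apart, in 1 of its 2 windows, an arrangement found in 0.0731% of all windows. The 10 bases directly after the later half-site of Cdkn1a miss the pattern only at their leading letter and were not counted. All 38 members, these 6 genes included, had intervals that include 0. The log2 fold changes of the 6 were -0.42 for Cdkn1a, 0.01 for Mdm2, -0.03 for Bax, -0.12 for Ccng1, 0.14 for Sesn1 and -0.03 for Gadd45a. Sequence outside the windows was not searched.

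Guardians of the Bcl2 family, which hold the effectors in check, all had slightly negative log2 fold changes, from -0.10 to -0.04, and 0 of 4 were called. Mcl1, a short-lived guardian, was the most abundant of them per length. It measured 181, 175 and 179 CPM in WT libraries and 173, 160 and 165 CPM in Sd/Sd libraries, with every Sd/Sd library below every WT library. The step was small, with a log2 fold change of -0.10 (SE 0.06, interval -0.24 to 0.03; unadjusted p = 0.120, edgeR adjusted p = 1.00). Bcl2 itself measured 17.7, 15.6 and 14.1 CPM in WT libraries and 16.9, 15.1 and 14.0 CPM in Sd/Sd libraries, ranges that nearly coincide (log2 fold change -0.05, SE 0.13, interval -0.34 to 0.24; 0.02 without Sd replicate 3). Bcl2l1, the gene of Bcl-xL, and Bcl2l2, the gene of Bcl-w, had means of 66.3 and 24.8 CPM in WT and 64.5 and 24.0 CPM in Sd/Sd. A gene model named Gm20521 overlaps Bcl2l2 on the same strand, so reads of Bcl2l2 may be split with it, and the same holds for Casp2 with Gm25108 and Sesn2 with Gm12981.

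Effectors that open the mitochondrial membrane were 3, and 0 were called. Bax, which p53 also induces, measured 102, 98.9 and 108 CPM in WT libraries and 93.4, 102 and 106 CPM in Sd/Sd libraries. The groups overlapped, and the log2 fold change of -0.03 (SE 0.07, interval -0.20 to 0.13) left room for at most a 1.09-fold increase. Bak1, its partner, had means of 84.6 ± 2.72 and 84.5 ± 1.37 CPM (SD, n = 3) and the narrowest spread of all members, with the highest library 1.06 times the lowest. Bok, an effector that acts without Bax and Bak1, measured 34.5, 31.1 and 31.2 CPM in WT libraries and 29.3, 27.2 and 29.2 CPM in Sd/Sd libraries. All Sd/Sd values of Bok were below all WT values, and the log2 fold change was -0.17 (SE 0.08, interval -0.37 to 0.02; unadjusted p = 0.0691, edgeR adjusted p = 1.00).

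BH3-only genes, whose products trigger the pathway and of which several are switched on by transcription, did not separate. All 7 overlapped between groups, as did 14283 of the 15471 genes tested, and 0 were called. Bbc3 (Puma), the principal p53-induced killer, measured 8.86, 8.36 and 7.49 CPM in WT libraries and 7.71, 9.07 and 8.65 CPM in Sd/Sd libraries. Its ranges cover each other, with a log2 fold change of 0.04 (SE 0.14, interval -0.28 to 0.37), so increases above 1.29-fold lie outside the interval. Bcl2l11 (Bim), which responds to loss of growth factors, measured 48.9, 42.0 and 45.6 CPM in WT against 47.7, 43.0 and 46.3 CPM in mutant libraries (log2 fold change 0.01, SE 0.08, interval -0.18 to 0.19). Pmaip1 (Noxa), the other p53-induced BH3-only gene, had a log2 fold change of -0.03 and an upper bound of 1.21-fold.

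Bik was the least abundant member per length and the least certain in this class. Its levels were 1.46, 0.984 and 1.59 CPM in WT and 0.655, 1.23 and 1.18 CPM in Sd/Sd, with WT replicate 2 below Sd/Sd replicates 2 and 3. The log2 fold change was -0.38 (SE 0.34, interval -1.16 to 0.39; edgeR adjusted p = 1.00). Bid, which links death receptors to mitochondria, Bad, which is controlled by survival kinases, and Bmf, which senses loss of attachment, had log2 fold changes of 0.00, -0.07 and 0.04.

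**Figure D3:**
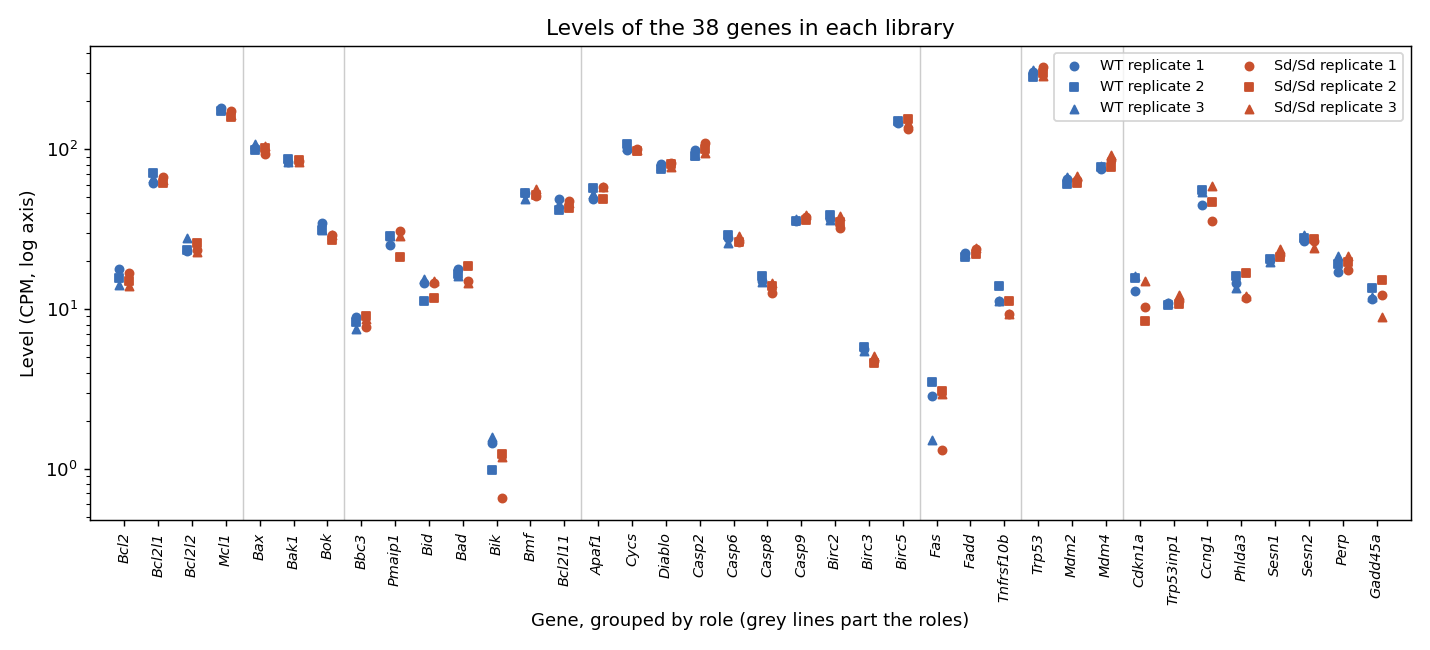
Level in CPM (y axis, log scale) of the 38 genes in the 3 WT (blue) and 3 Sd/Sd (red) libraries, with shapes for replicates and grey lines between roles. Trp53 lies near 300 CPM and Bik near 1 CPM, and differences between genes are far wider than those between libraries.

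The apoptosome, the caspases and their inhibitors comprised 10 members, 4 with positive and 6 with negative log2 fold changes, and 0 were called. Casp9, the initiator that Apaf1 activates, measured 35.4, 35.5 and 36.6 CPM in WT libraries and 37.7, 35.9 and 38.8 CPM in Sd/Sd libraries. The lowest Sd/Sd library lay within the WT range, and the log2 fold change was 0.06 (SE 0.07, interval -0.10 to 0.23). Apaf1, Cycs, which encodes cytochrome c, and Diablo, which encodes an antagonist of caspase inhibitors, had log2 fold changes of 0.04, -0.06 and 0.03. An increase of Apaf1 above 1.20-fold, of Cycs above 1.05-fold or of Diablo above 1.14-fold lies outside their intervals.

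Casp8, the initiator recruited by death receptors, measured 15.1, 16.0 and 14.7 CPM in WT libraries and 12.6, 14.0 and 14.6 CPM in Sd/Sd libraries. The groups did not overlap, but Sd/Sd replicate 3 and WT replicate 3 nearly touch, and the log2 fold change was -0.15 (SE 0.11, interval -0.41 to 0.11; unadjusted p = 0.216, edgeR adjusted p = 1.00). Casp2, an initiator that p53-induced Pidd1 can engage, had the smallest p of this class. It measured 98.9, 91.1 and 92.3 CPM in WT libraries and 110.4, 100.2 and 94.6 CPM in Sd/Sd libraries, with Sd/Sd replicate 3 inside the WT range (log2 fold change 0.11, SE 0.08, interval -0.06 to 0.29; unadjusted p = 0.178). Without Sd replicate 3 the log2 fold change of Casp2 was 0.16 (unadjusted p = 0.0571, edgeR adjusted p = 0.930), and without Sd replicate 1 it was 0.05 (unadjusted p = 0.493). Casp6, which cleaves lamins, had a log2 fold change of -0.03.

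Birc3, which encodes the ubiquitin ligase cIAP2 of the tumour necrosis factor pathway, measured 5.65, 5.81 and 5.45 CPM in WT libraries and 4.71, 4.62 and 5.10 CPM in Sd/Sd libraries, without overlap. The log2 fold change of Birc3 was -0.23 (SE 0.16, interval -0.59 to 0.13; unadjusted p = 0.182, edgeR adjusted p = 1.00), while Birc2, its relative cIAP1, overlapped at -0.08. Birc5 (survivin), which despite its family name works chiefly in mitosis, had means of 149.1 ± 2.26 and 145.5 ± 9.81 CPM (SD, n = 3; log2 fold change -0.04). Of 15 mitotic cell cycle genes set beside Birc5, 0 were called, with a median log2 fold change of 0.03. Groups overlapped for 15 of 15, and for 14283 of the 15471 genes tested.

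Death receptors and their adaptor made up 3 members, and 0 were called. Fas, a receptor that p53 can raise, was scarce and variable, at 2.84, 3.48 and 1.52 CPM in WT and 1.31, 3.05 and 2.92 CPM in Sd/Sd. Its highest library stood 2.66 times above its lowest, the widest spread of the 38 genes, and the interval of its log2 fold change ran from -1.01 to 0.80 around -0.11 (SE 0.40). With single libraries left out, the log2 fold change of Fas ran from -0.38 to 0.19 and was -0.25 without Sd replicate 3. Primitive erythroid markers varied alongside in part: their summed level was lowest, 1727 CPM, in Sd/Sd replicate 1, where Fas was lowest, and was 2788 to 10000 CPM in the other libraries. Sd/Sd replicate 3 broke the parallel, with the next lowest erythroid sum, 2788 CPM, and Fas at 2.92 CPM, above WT replicate 1. Of these 8 markers 6 were tested and 0 called, and the part of blood cells in the spread of Fas was not tested. Tnfrsf10b, the mouse receptor of the ligand TRAIL, measured 11.3, 14.0 and 11.2 CPM in WT libraries and 9.29, 11.3 and 9.34 CPM in Sd/Sd libraries. Sd/Sd replicate 2 reached the WT range, and the log2 fold change was -0.29 (SE 0.15, interval -0.62 to 0.05; unadjusted p = 0.0871, edgeR adjusted p = 1.00). It was -0.39 without Sd replicate 2 (unadjusted p = 0.0384, edgeR adjusted p = 0.830) and -0.17 without WT replicate 2 (unadjusted p = 0.322, edgeR adjusted p = 1.00). Fadd, the adaptor between receptor and caspase 8, had a log2 fold change of 0.09.

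Further genes of these pathways, listed apart from the 38, were tested alongside. With 0.0582% of all genes tested called, a count of 0 says little about lists this short or about single roles. Of 30 tested further p53 targets, 0 were called, 16 log2 fold changes were positive and 14 negative, and the median was 0.01. The smallest p among them belonged to Slc19a2, a thiamine transporter gene, at 17.0, 17.0 and 16.0 CPM in WT against 13.4, 12.1 and 15.5 CPM in mutant libraries (log2 fold change -0.28, SE 0.12; unadjusted p = 0.0477, edgeR adjusted p = 1.00). Xpc, a damage recognition gene, followed with a log2 fold change of 0.15 (SE 0.07, edgeR unadjusted p = 0.063). Dram1, a p53-induced autophagy gene, was next at -0.87 (SE 0.42, edgeR unadjusted p = 0.0684). Slc19a2 and Dram1 had all Sd/Sd values below WT and Xpc had the reverse. They made up 10.0% of the tested list, beside 7.68% of all genes tested with separate groups. Dram1 was below 1 CPM in all 6 libraries.

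Other apoptosis genes had 0 of 19 tested members called and a median log2 fold change of 0.01. The smallest p in the list was that of Hrk, a BH3-only gene under 1 CPM, with a log2 fold change of 0.62 (SE 0.38; unadjusted p = 0.134), followed by Tnfrsf21, a death receptor gene, at 0.12 (SE 0.09) and Parp1, a caspase substrate, at 0.09 (SE 0.08). Fasl and Tnfsf10, the ligands of Fas and of the TRAIL receptor, were too low to test and were at 0 counts in all 3 Sd/Sd libraries, with 4 and 9 counts in total over WT.

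Genes for the engulfment of dying cells were called in 0 of 19 tested, with a median log2 fold change of -0.01. Dock5, Dock1 and Itgav, a pair of Rac activators and the integrin alpha v chain that recognises bridging proteins on dying cells, had the smallest p values, with log2 fold changes of 0.19 (SE 0.11), 0.10 (SE 0.07) and -0.17 (SE 0.12). Markers of macrophages, the professional phagocytes, were mostly low: 5 of 15 passed the filter, 0 were called, and the 15 summed to 6.25 to 8.29 CPM in WT and 5.85 to 7.51 CPM in Sd/Sd. Cd68, a lysosomal gene that other cells also express, made up most of each sum at 3.37 to 4.85 CPM. Among the other markers, Mrc1 reached 1.06 CPM and Csf1r 0.783 CPM, and Ptprc had 0 counts in WT replicate 3 and Sd/Sd replicate 3 and 2 to 4 counts elsewhere. Spi1 and Fcer1g, both under 1 CPM, had separate groups in opposite directions (40.0% of the 5 tested, beside 7.68% of all genes tested). Spi1 was lower in Sd/Sd (log2 fold change -1.04, interval -2.25 to 0.17). Fcer1g was higher (0.55, interval -0.35 to 1.45), so both intervals were wide and held 0. Genes of the integrated stress response, which share Sesn2 with the members, were called in 0 of 14, with a median log2 fold change of -0.09. The smallest p values in that list were those of Hspa5, an endoplasmic reticulum chaperone gene, Sesn2 and Atf3, a stress-induced transcription factor gene, with log2 fold changes of -0.11, -0.10 and -0.18.

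**Figure D4:**
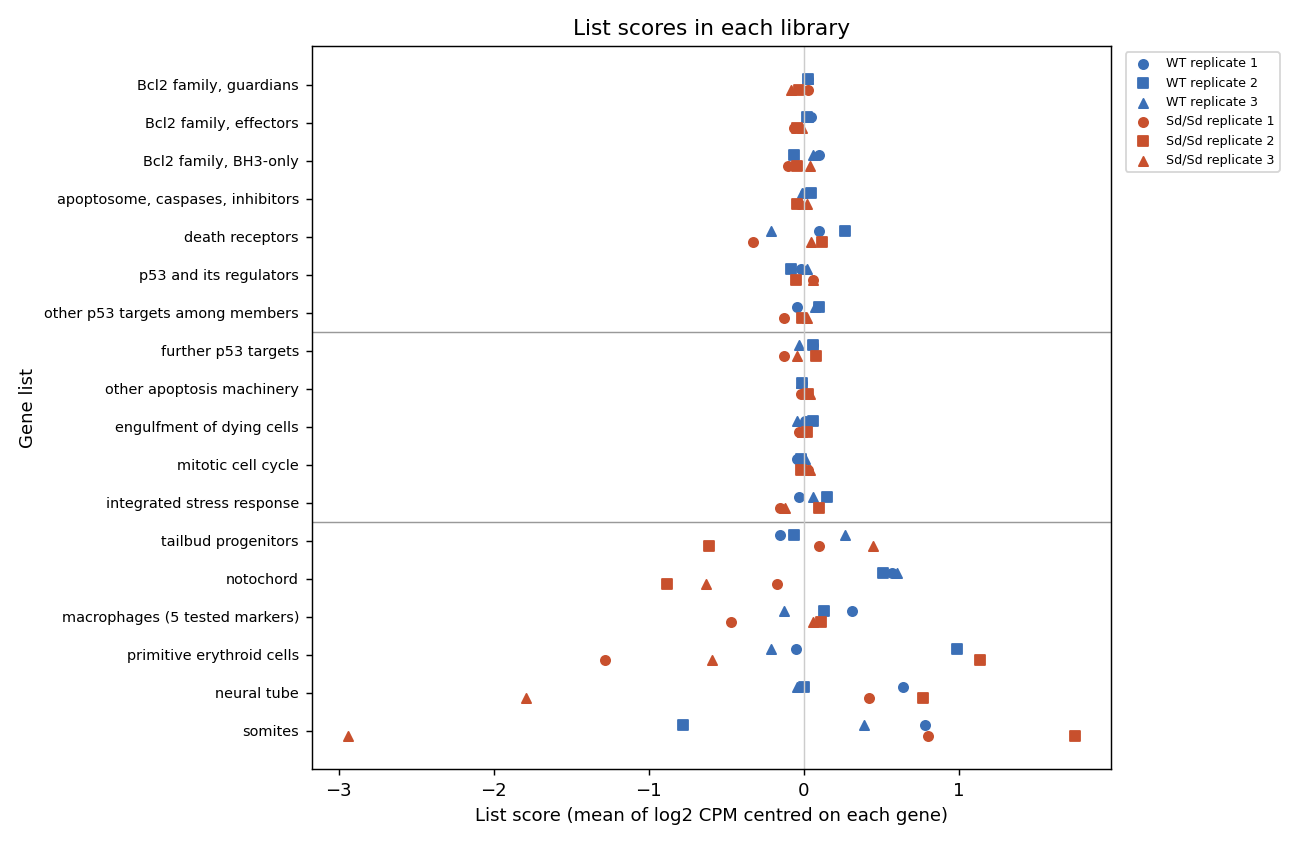
Score of each gene list in each library (x axis: mean log2 CPM of the tested genes, each centred on its own mean over 6 libraries), for the roles of the 38 genes (top), the further lists (middle) and cell type markers (bottom). Scores of the death and p53 lists lie between -0.33 and 0.27, while notochord scores are 0.51 to 0.60 in WT and -0.88 to -0.17 in Sd/Sd, and somite scores run from -2.94 to 1.75.

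Scores summarised the lists in each library. Over all 38 genes the score, a mean of centred log2 CPM, was 0.02, 0.04 and 0.02 in WT replicates 1 to 3 and -0.08, -0.02 and 0.02 in Sd/Sd replicates 1 to 3. The summed level of the 38 genes was 1911 to 1941 CPM in WT and 1877 to 1920 CPM in Sd/Sd, so the ranges overlapped. Among the roles, only the guardians had separate sums, at 283.3 to 287.4 CPM in WT and 263.1 to 280.3 CPM in Sd/Sd. Mcl1 made up the largest part of the guardian sums. Effector scores were 0.02 to 0.05 in WT and -0.06 to -0.01 in Sd/Sd and separated by a small gap, with Bok as the effector whose groups did not overlap. Scores of the other roles overlapped between groups, and death receptors spread most, from -0.33 in Sd/Sd replicate 1 to 0.27 in WT replicate 2. In single genes the highest library exceeded the lowest by a median factor of 1.21 over the members. The median factor was 1.35 over the tested genes with a count in every library, which were not matched to the members for abundance. A factor of 1.5 or more was reached by 6 members: Fas, Bik, Cdkn1a, Gadd45a, Ccng1 and Tnfrsf10b.

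Abundance could be ordered only per length of exon. Per kilobase of summed exons, Trp53 stood first at 74.6 CPM (WT) and 75.6 CPM (Sd/Sd), followed by Bax at 65.3 and 63.8, Mcl1 at 52.2 and 48.6, Birc5 at 43.8 and 42.8, and Bak1 at 35.1 and 35.1. Neighbours in this order that differ by more than their spread include Trp53 and Bax, whereas Diablo and Mdm2, at 12.7 CPM per kilobase in WT each, do not. Bik, at 0.845 and 0.643, Birc3, at 1.13 and 0.960, and Fas, at 1.27 and 1.18, were lowest. The effectors Bax and Bak1 stood above the p53-induced triggers Bbc3, at 3.88 and 3.99, and Pmaip1, at 10.1 and 9.84, in CPM per kilobase.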

How the data were processed

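Raw counts per gene, 1 file per library, were deposited by the authors. Per the submitters' processing notes, build mm9 was used with STAR 2.5.2b, SAMtools, CASAVA, bcl2fastq 2.17.1.14 and DESeq2 (order and roles not stated). How reads were assigned to genes, with which strand option and gene models, is not given in the sources used. Libraries were made with a stranded kit, per the labels' protocols; 12 members overlap another gene model. Symbols and exon lengths came from GENCODE M21 (GRCm38). Genes were filtered with filterByExpr (minimum count 10, minimum total 15; 15471 kept) and tested with edgeR 4.0.16 (TMM, robust quasi-likelihood, 2-sided) in R 4.3.3, with Benjamini-Hochberg adjustment over all genes at 0.05. Intervals are the log2 fold change plus or minus the t quantile times its standard error (size over root F). In simulated counts for this comparison over 15471 genes, 76% of 100 genes changed 2-fold and 55% of 100 changed 1.5-fold were recovered, with 6 false calls. Those counts had the spread typical of each gene's abundance, without spread particular to a gene or tissue differences between libraries. The changed genes excluded the least abundant, so recovery in the real libraries may differ.

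Members, lists and tests were chosen with earlier results of these data known. Values in every library are given for members with p under 0.05 or separate groups, for 13 preset members, and for the smallest p in each role; up to 3 genes are named per further list. Some genes of the further lists are not reported here. Same-numbered libraries of both groups deviated together (correlations 0.194, 0.144 and 0.275 over 15471 genes), though so did WT replicate 1 and Sd replicate 2 (0.182); the block on replicate number was an alternative, with DESeq2 1.42.0, limma-voom (limma 3.58.1), other filters and scaling, and each library left out. The labels name no litters, and p-values therefore reflect only how far these libraries spread, which may be technical.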

Additional observations from a re-analysis of the deposited data

How the results depend on the processing

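In all 13 alternatives 0 of 38 members were called at an adjusted p under 0.05, and the median log2 fold change over members stayed between -0.04 and -0.02. Members at an unadjusted p under 0.05 numbered 0 in edgeR's test as reported. DESeq2 gave 1 lower member and the replicate block 1 lower member, Cdkn1a in both (log2 fold change -0.41 and -0.45, unadjusted p = 0.0402 and 0.0204, adjusted p = 1.00); the block changed no other call of a member. Leaving out single libraries gave 0 to 1 higher and 0 to 2 lower members: Mdm4, Phlda3 and Tnfrsf10b without Sd replicate 2, and Cdkn1a and Ccng1 without Sd replicate 3. Over all genes, the 6 higher and 3 lower calls became 19 and 20 with DESeq2, 3 and 0 with limma-voom, 3 and 0 without the robust option, 9 and 5 with no filter on low counts, 8 and 4 with the replicate block, and 2 to 5 and 0 to 1 with single libraries left out; the cause was not tested. Bik, at 27 counts in its lowest library, and Fas, at 54, had the widest intervals of the members, and the part of depth in this was not tested. Intervals cover the spread between libraries, not changes in a small group of cells within the tailbud.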
